A study of Bos taurus with 8 samples.

Results

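miR-221 and miR-222 are small RNAs of neighbouring genes on bovine chromosome X. They were followed here in the mammary gland of 8 heifers. They are the 2 of 763 miRNAs on a bovine microarray that its annotation names bta-miR-221 and bta-miR-222, and 5 of the 1657 miRNA probes measure them. Both were higher in Limousin than in Holstein-Friesian mammary tissue, by 1.36-fold for bta-miR-221 and 1.42-fold for bta-miR-222 (4 heifers per breed). Neither difference passed an adjusted p of 0.05 in limma without background correction or with a fitted background. The level of one relative to the other did not differ between the breeds beyond the spread between heifers. That level did differ when the arrays were corrected for the GC content and length of the probes.

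The study compared mammary tissue of 4 Holstein-Friesian heifers, a dairy breed, with that of 4 Limousin heifers, a beef breed. All 8 animals were non-pregnant, had no clinical mastitis and were sampled at slaughter; the labels give their age as 20 months in one field and 2 years in another. Each animal gave 100 ng of total RNA, which carried a cyanine 3 label on an Agilent 1-colour array, and the labels call the 4 arrays of a breed biological replicates. The tissue was a piece of whole gland, so fewer cells of a type and less RNA per cell cannot be told apart.

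All 8 arrays lay on 1 slide with 1 scan date, the Holstein-Friesian arrays in its first row and the Limousin arrays in its second, so row and breed cannot be told apart. Each array held 45780 spots. Between 28.6% and 35.5% of them were well above background, and 0 were saturated. Precision is limited by having 4 arrays for each breed.

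As background, a miRNA guides the silencing complex to messenger RNAs that pair with its seed, a short stretch near its 5′ end. miR-221 and miR-222 share their seed, are cut from a common primary transcript and therefore have overlapping targets. Among the targets reported for them are ESR1, the oestrogen receptor that drives duct growth in the mammary gland; CDKN1B, which encodes the cell cycle inhibitor p27; and KIT, a receptor tyrosine kinase found on mammary progenitor cells. In human breast cancer cells they are known for high levels in tumours that lack the oestrogen receptor. They are also abundant in blood vessel endothelium, where they restrain the response to KIT ligand.

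The array reads each miRNA with DNA probes of several lengths that pair with the 3′ part of the mature strand. The 5 probes are shown because signal was read separately from each; bases in capitals are those that a longer probe adds to the next shorter probe of the same miRNA, and every probe is written 5′ to 3′.
miR-221, 15 bases: aaacccagcagacaa
miR-221, 16 bases: aaacccagcagacaaT
miR-221, 17 bases: aaacccagcagacaatG
miR-222, 12 bases: acccagtagcca
miR-222, 13 bases: acccagtagccaG
The array annotation (UMD 3.1 build) places the 17-base miR-221 probe on chromosome X from 103538905 to 103538920 and the 13-base miR-222 probe from 103538218 to 103538229, which leaves 675 bases between them. Each annotated interval spans 1 base fewer than its probe. In the RefSeq gene table of another build (ARS-UCD2.0, used for order only) MIR221 and MIR222 are neighbours with 0 genes between them. Both lie inside the long noncoding RNA gene LOC132344329, between the protein-coding genes ZNF674 on one side and DIPK2B and KDM6A on the other.

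The longest probes of the pair are alike in sequence, which bears on whether one could pick up the other's miRNA. They are written again with their longest common run in capitals.
miR-221 longest probe: aaACCCAGcagacaatg
miR-222 longest probe: ACCCAGtagccag
The common run is 6 bases, and 10 of the 13 bases of the miR-222 probe match the miR-221 probe where the pair is aligned on it. The closest other sequence on the array belonged to miR-2481, whose probes of 16 and 17 bases share a run of 15 bases with the 17-base miR-221 probe. The longest of them is shown for comparison.
miR-2481, 17 bases: aaaacccagcagacaac
All 3 miR-2481 probes were above background on 0 of the 8 arrays, with 0% of their spots well above background and mean intensities from -0.21 to 6.73 units, so they carried almost no signal in this tissue. For miR-222 the longest run shared with any other miRNA was 6 bases. Cross-hybridisation between miR-221 and miR-222 themselves was not tested.

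A miRNA's level is given on the log2 scale, from the probe with the highest mean signal, after each array was scaled to the 75th percentile of the probes detected on all 8 arrays. For miR-221 that was the 17-base probe. In the 4 Holstein-Friesian heifers its level was 7.52, 7.72, 7.50 and 7.73, with a mean of 7.62 ± 0.12 (SD, n = 4). In the 4 Limousin heifers it was 8.12, 8.05, 8.10 and 8.0, with a mean of 8.07 ± 0.055 (SD, n = 4). The lowest Limousin heifer lay above the highest Holstein-Friesian heifer, so the breeds did not overlap, and the Holstein-Friesian animals fell into a lower and a higher pair.

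The difference in miR-221 was 0.45 on the log2 scale (SE 0.11), or 1.36-fold (95% confidence interval 1.16 to 1.61), with an adjusted p of 0.0093 from limma over the 269 miRNAs tested. Of those 269 miRNAs, 113 passed the same threshold of 0.05, which is 42%, 13.8% with Limousin higher, as for miR-221, and 28.3% with Limousin lower. In size its increase ranked 31 of 269. So many miRNAs differed between these arrays that passing the threshold does not set miR-221 apart.

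miR-222 was read from its 13-base probe. In the Holstein-Friesian heifers its level was 7.36, 7.26, 7.34 and 7.46, with a mean of 7.35 ± 0.082 (SD, n = 4). In the Limousin heifers it was 7.92, 7.88, 7.96 and 7.69, with a mean of 7.86 ± 0.12 (SD, n = 4). Again all Limousin heifers lay above all Holstein-Friesian heifers, and the lowest Limousin value was that of replicate 4. The difference was 0.50 (SE 0.11), or 1.42-fold (interval 1.20 to 1.68), with an adjusted p of 0.0066 in the same limma fit, and in size it ranked 25 of 269. A gap between the breeds like that of miR-221 and miR-222, with every Limousin array higher, was present in 43 of the 269 tested miRNAs, or 16%.

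**Figure D1:**
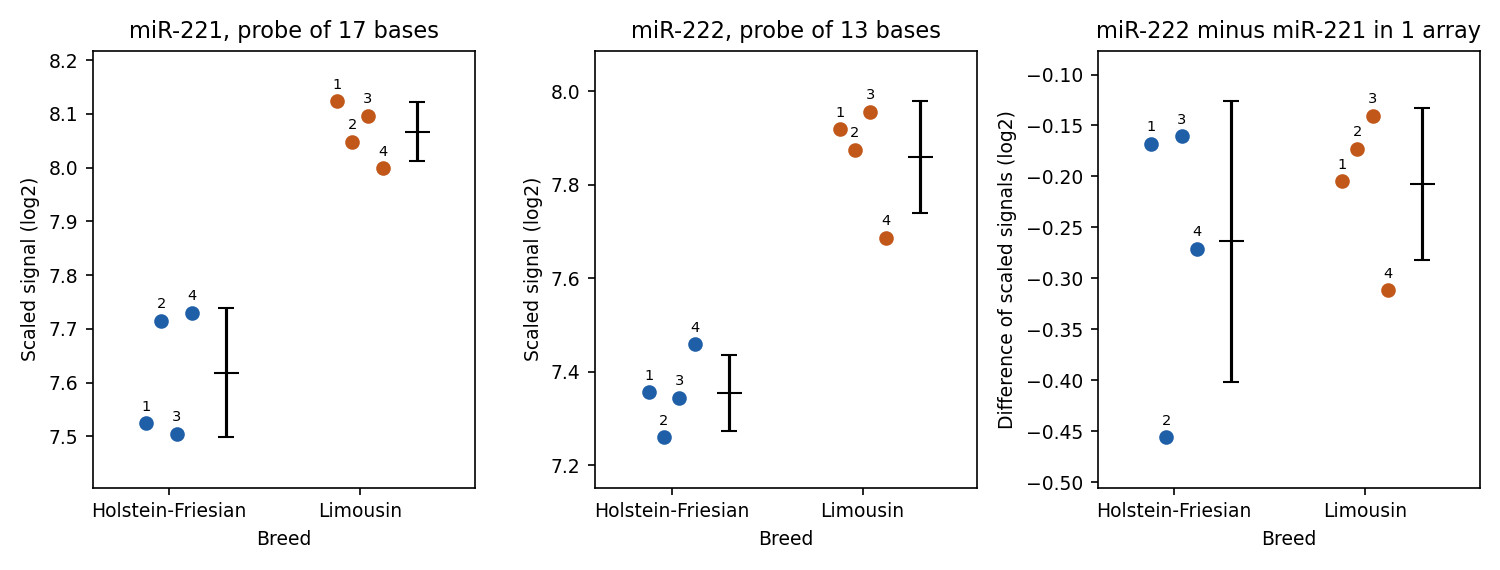
Scaled log2 signal of miR-221 (17-base probe), of miR-222 (13-base probe) and of miR-222 minus miR-221 within each array, by breed; points are heifers with their replicate number, and bars are the mean and SD of 4. For either miRNA all 4 Limousin points lie above all 4 Holstein-Friesian points, while the within-array differences overlap, from -0.46 to -0.16 in Holstein-Friesian and from -0.31 to -0.14 in Limousin.

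Before scaling, the separation was wider. The 17-base miR-221 probe had a mean intensity of 121, 122, 177 and 137 units in the Holstein-Friesian heifers and of 342, 435, 269 and 331 units in the Limousin heifers. The 13-base miR-222 probe read 108, 88.8, 159 and 113 units in Holstein-Friesian and 296, 386, 244 and 267 units in Limousin. The Limousin arrays were brighter in general: without scaling, the median over all 269 tested miRNAs was 0.79 higher in Limousin, against -0.07 after it.

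A single scaling factor per array cancels in the ratio of the pair. miR-222 minus miR-221 was -0.17, -0.46, -0.16 and -0.27 in the Holstein-Friesian heifers, with a mean of -0.26 ± 0.14 (SD, n = 4). It was -0.20, -0.17, -0.14 and -0.31 in the Limousin heifers, with a mean of -0.21 ± 0.074 (SD, n = 4). The value of one array says nothing of which miRNA is more abundant, since the probes differ, but it can be compared between arrays. The breeds overlapped, and the lowest value was that of Holstein-Friesian replicate 2.

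The ratio differed between breeds by 0.06 on the log2 scale (95% interval -0.15 to 0.32; two-sided exact permutation test, p = 0.629, smallest possible 0.0286). Differences in the ratio anywhere within that interval, in either direction, are compatible with these 4 heifers a breed. The value turned to -0.01 without Holstein-Friesian replicate 2. It became 0.52 (interval 0.26 to 0.73, exact p = 0.0286) when the arrays were corrected for the GC content and length of the probes, in which the miR-222 probe, with 61.5% GC over 13 bases, differs from the miR-221 probe, with 47.1% over 17.

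The 3 probes detected on all 8 arrays were compared one by one. Of the miR-221 probes, the difference was 0.31 (adjusted p = 0.0595, limma over 492 probes) with 16 bases and 0.45 (adjusted p = 0.0097) with 17 bases. With the 13 bases of the longer miR-222 probe it was 0.50 (adjusted p = 0.0069). So 2 of these 3 passed, against 40.7% of the 492 tested probes in either direction and 14% with Limousin higher. For each of the 3 the breeds did not overlap, which held, with Limousin higher, for 15.4% of the tested probes. Probes of a miRNA share most of their sequence and are not replicates.

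The shortest probe of each miRNA was close to the limit of detection. On the Holstein-Friesian arrays the 15-base miR-221 probe had 0, 5, 2 and 1 of its 18 to 20 spots well above background, and on the Limousin arrays nearly all of them. The 12-base miR-222 probe had 2, 0, 4 and 1 of 29 or 30 spots above background in Holstein-Friesian. Both shortest probes were thus detected on every Limousin array, and in no Holstein-Friesian heifer were they well above background. The scaled level of the 15-base probe averaged 4.24 in Holstein-Friesian and 4.5 in Limousin, and that of the 12-base probe 4.01 and 4.55. No difference or fold is given for these scaled levels. The Limousin mean lay below the lowest level called detected on the Holstein-Friesian arrays, a mean of 4.71.

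In intensity units the 15-base probe of miR-221 read between 12.6 and 13.8 in Holstein-Friesian and between 23.9 and 36.8 in Limousin. The 16-base probe, detected on all 8 arrays, read between 28.5 and 38.8 in Holstein-Friesian and between 59.9 and 94.0 in Limousin. Its scaled level averaged 5.53 ± 0.16 in Holstein-Friesian and 5.83 ± 0.090 in Limousin (SD, n = 4 each).

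**Figure D2:**
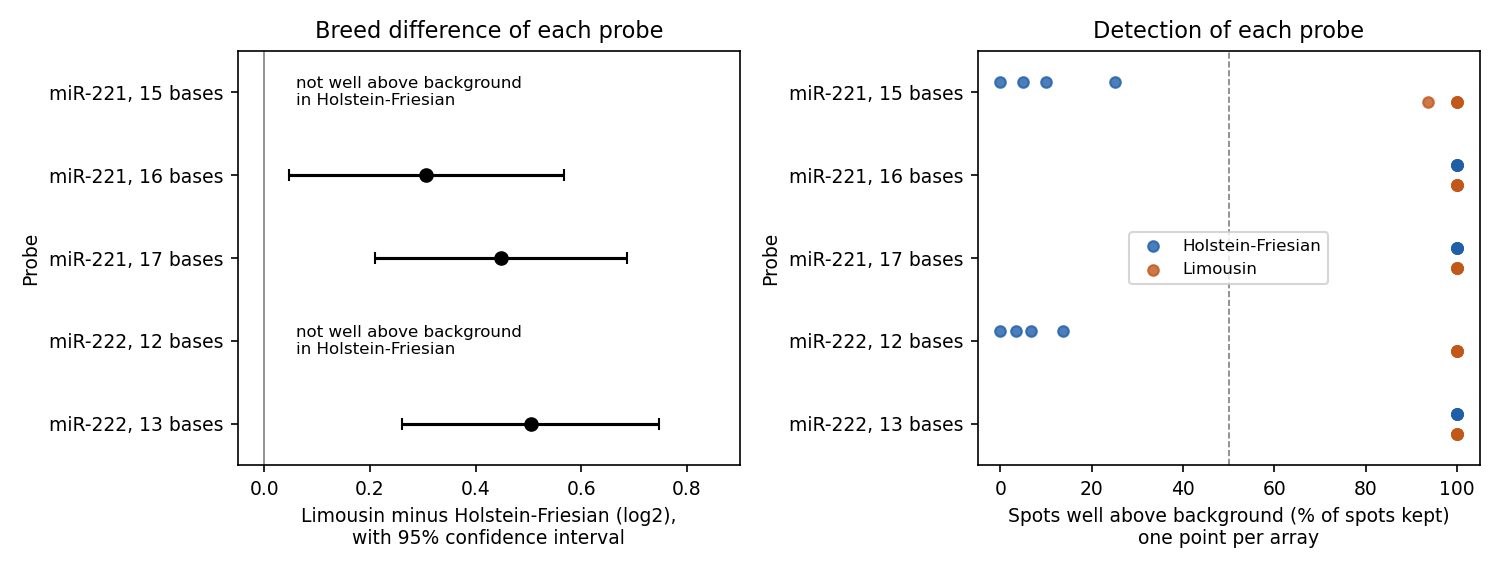
Left, Limousin minus Holstein-Friesian difference (log2) of the 3 probes detected on all 8 arrays with its 95% confidence interval from limma; right, percentage of each probe's spots well above background, a point per array, with the 50% limit for detection dashed. The differences run from 0.31 to 0.50, and the shortest probe of each miRNA passes the detection limit only on the Limousin arrays.

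Within an array, the probes detected in both breeds were also set against each other, in 3 pairs. Between the 17-base and 16-base probes of miR-221 the breed difference grew by 0.14 (exact permutation p = 0.0571). Between the 13-base probe of miR-222 and the 16-base probe of miR-221 it grew by 0.20 (exact p = 0.0857). Neither passed, before or after Benjamini-Hochberg adjustment over the 3 pairs (0.129 for either), and the remaining pair is the ratio given above.

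How far the members rose depended on how the arrays were scaled and on the background correction. A background of 48 to 51 intensity units was removed from every one of the member probes on every array. For the 17-base miR-221 probe this was 22.1% to 29.4% of the uncorrected signal in Holstein-Friesian and 10.4% to 15.4% in Limousin. For the 13-base miR-222 probe it was 24.2% to 35.7% in Holstein-Friesian and 11.7% to 16.8% in Limousin. The share removed was thus higher in every Holstein-Friesian heifer.

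Without background correction the difference was 0.25 for miR-221 (limma adjusted p = 0.0681) and 0.25 for miR-222 (adjusted p = 0.0616). With a fitted background (normexp) it was 0.21 for either (adjusted p = 0.119 and 0.117), so the calls were lost under both. The median of all tested miRNAs moved down at the same time, to -0.36 and -0.38. Without background correction the shorter probes of the pair also turned to lower in Limousin. The 16-base probe of miR-221 was at -0.23 (limma adjusted p = 0.140). The shortest probes turned to lower too, but their differences are not relied on. They were not well above background in Holstein-Friesian, where background made up 76.3% to 85.0% of their uncorrected signal.

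Set against the median of all tested miRNAs in the same setting, the pair moved less. Part of this is arithmetic. A single factor per array shifts the pair and that median alike, so such scalings could not change the distance. A replicate block does not change it either. miR-221 stood 0.51 above that median as reported here and between 0.42 and 0.60 above it over 17 alternative settings. miR-222 stood 0.57 above it as reported, and between 0.50 (no detection filter) and 1.06 (correction for GC content and length with a replicate block) above it over those settings. Both kept their sign under each scaling tried, with differences from 0.51 to 1.30 for miR-221 and from 0.58 to 1.36 for miR-222 under the other scalings.

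**Figure D3:**
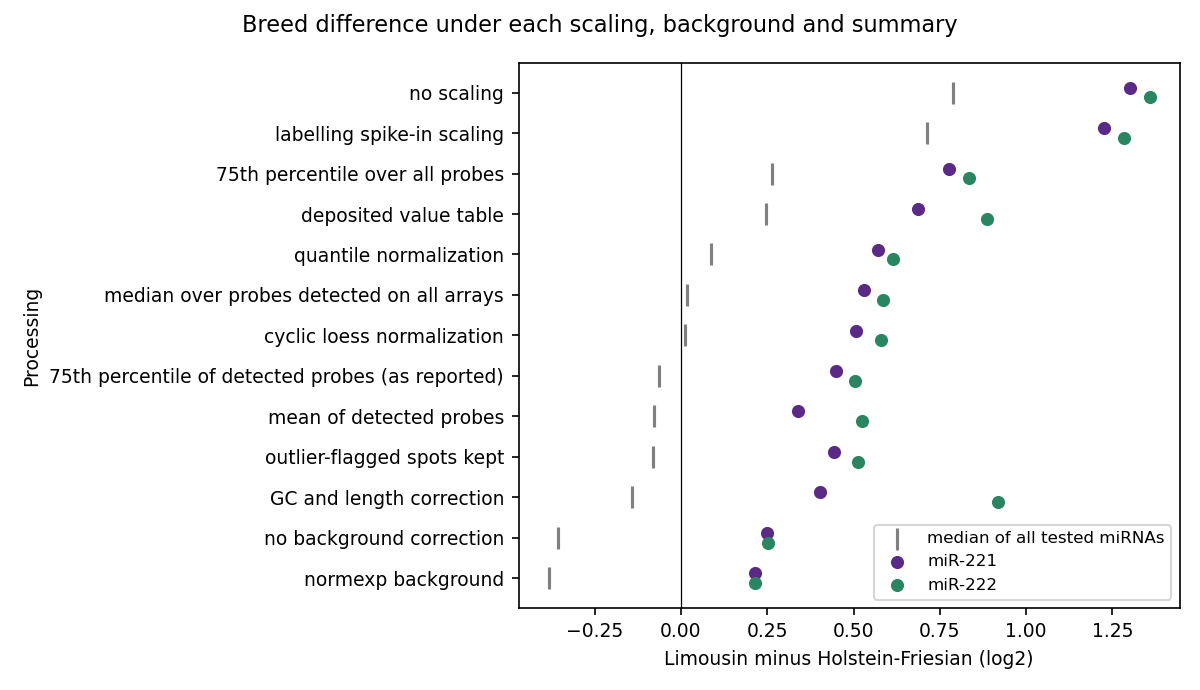
Limousin minus Holstein-Friesian difference (log2) of miR-221 and miR-222 under 13 ways of scaling, background correction and summary; grey bars mark the median of the tested miRNAs under the same setting. The pair lies to the right of the median in every row, while its absolute difference runs from 0.21 with normexp to 1.36 for miR-222 without scaling. Rows that differ only by a single factor per array have the same distance to the median by arithmetic.

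The value table that the authors deposited holds log2 signals with a constant of its own subtracted from each array. There miR-221 was 0.44, 0.76, 0.44 and 0.70 in Holstein-Friesian and 1.32, 1.27, 1.34 and 1.16 in Limousin. miR-222 was 0.42, 0.46, 0.63 and 0.59 in Holstein-Friesian and 1.47, 1.44, 1.53 and 1.21 in Limousin. The breeds did not overlap in those values either, and the differences were 0.69 and 0.89, in a table whose tested miRNAs had a median difference of 0.25. The ratio of the pair differed between the breeds by 0.20 there (exact permutation p = 0.114).

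The miRNAs whose levels most resembled the pair over the 8 arrays were higher in Limousin, apart from miR-218, which was not detected in Holstein-Friesian. Pearson's r over 8 arrays, which holds the breed difference and shares the scaling of each array, is given as a description. For miR-221 the closest were miR-218 (r = 0.945), miR-222 (r = 0.928), miR-204 (r = 0.919), an older array entry named miR-218_v13.0 (r = 0.911) and miR-24-3p (r = 0.902). For miR-222 they were miR-204 (r = 0.941), miR-221 (r = 0.928), miR-155 (r = 0.921), miR-218_v13.0 (r = 0.904) and miR-194 (r = 0.897). So miR-221 and miR-222 were each the other's second closest, with miR-204 and miR-218_v13.0 close to both.

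miR-204, which had the largest increase of all tested miRNAs, lay between 7.30 and 7.64 in Holstein-Friesian and between 9.74 and 10.2 in Limousin, a difference of 2.40 (limma adjusted p = 1.2e-06). miR-155, a miRNA of activated lymphocytes and macrophages, was 0.95 higher in Limousin (adjusted p = 0.0012), and miR-194 was 0.72 higher (adjusted p = 0.0012). Without background correction miR-155 was at 0.41 (limma adjusted p = 0.0062), while miR-194 was at 0.21 and lost its call (adjusted p = 0.0961). miR-218 was detected on 0 Holstein-Friesian arrays and on 4 Limousin arrays, with mean scaled levels of 3.36 and 4.47. No difference is drawn from it, since the Limousin mean lies below the detection limit given for the short probes above, and without background correction it was lower in Limousin (-0.36).

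Once each breed's mean was subtracted, the resemblance within the pair was weaker, with r = 0.367 over the 8 arrays. miR-222 then ranked 46 in likeness to miR-221, and miR-221 ranked 35 in likeness to miR-222. The closest to miR-221 were miR-4286 (r = 0.797), miR-1260b (r = 0.793), miR-2478 (r = 0.745), let-7a-3p (r = 0.745) and miR-484 (r = 0.702). The closest to miR-222 were miR-2389 (r = 0.741), miR-1940 (r = 0.708), miR-2887 (r = 0.707), miR-3154 (r = 0.692) and miR-424-3p (r = 0.681). On the Holstein-Friesian side, let-7a-3p was detected on 3 arrays and miR-1940 on 2. Both were tested only through their Limousin arrays, and part of their signal lay near the limit of detection. The lists had no name in common; whether so little overlap differs from that of other miRNAs was not tested.

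Other miRNAs reported to repress the same targets were counted beside the pair. Of 12 array entries for ESR1 repressors, 8 were tested and 0 passed in limma (1 had an unadjusted p under 0.05), with a median difference of 0.10 against -0.07 over all tested miRNAs. The smallest p was that of miR-145, at -0.23 (adjusted p = 0.0912), a value that is above 0 under 3 of the 6 other scalings. miR-20b, a member of the miR-17 family, was at -0.45 (adjusted p = 0.130), and is above 0 under 2 of them. let-7a-5p, one of the let-7 miRNAs of differentiated tissue, was at 0.20 (adjusted p = 0.178), and is below 0 under 1.

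Of 8 entries for KIT repressors, 5 were tested; 1 was called higher and 2 were called lower in Limousin (13.8% and 28.3% over all tested miRNAs), with a median of -0.21. The call of a higher level is that of miR-218, not detected in Holstein-Friesian as described above. The lower ones were miR-193a-5p, at -0.67 (adjusted p = 0.0072), and miR-494, at -0.80 (adjusted p = 0.0147); without scaling they were at 0.19 and 0.06, and both calls were lost with the GC and length correction (adjusted p = 0.112 and 0.0648). For miR-494 the breeds overlapped. The list names miR-193a without an arm, so both arms were counted, whichever of them is the one reported for KIT. The other arm, miR-193a-3p, is a name added after its value was seen. It was at -0.21 (limma adjusted p = 0.167) and did not pass.

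Of 6 entries for CDKN1B repressors, 5 were tested. Of these, 1 was higher and 1 lower (again against 13.8% and 28.3%), with a median of 0.26. That median is the value of miR-152, a name added after its value was seen. miR-152 was detected on 1 Holstein-Friesian and 4 Limousin arrays, so it was tested only through its Limousin arrays. It was at -0.45 without background correction, and the median is therefore not relied on. miR-24-3p, one of the closest to miR-221, read 11.1, 11.4, 11.4 and 11.4 in Holstein-Friesian and 11.7, 11.8, 11.7 and 11.9 in Limousin, a difference of 0.45 (adjusted p = 0.0108) with no overlap. miR-181a was at -0.51 (adjusted p = 0.0150), and at 0.34 without scaling; with the GC and length correction its adjusted p was 0.0581. miR-196a was at 0.44 (adjusted p = 0.0757), with 1 Limousin heifer far above the others.

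Most other miRNAs of chromosome X did not pass. Apart from the pair, 19 tested miRNAs lay there by the array annotation; 1 was higher, 4 were lower (13.8% and 28.3% over all tested miRNAs) and 14 did not pass, with a median of -0.09. Without scaling 17 of the 19 were above 0, with a median of 0.76, where the median of all tested miRNAs was 0.79. The higher one was miR-421, at 0.55 (adjusted p = 0.0043), and at -0.31 without background correction. It was detected on 1 Holstein-Friesian and 4 Limousin arrays, so it was tested only through its Limousin arrays. Its call and the size of its difference are therefore not relied on. The lower ones were miR-363 at -1.07 (adjusted p = 0.0034), miR-188 at -0.87 (adjusted p = 0.0093), miR-452 at -0.48 (adjusted p = 0.0256) and miR-500 at -0.32 (adjusted p = 0.0400). The last 2 were chosen for naming after their values were seen. miR-500 lost its call once GC and length were corrected for (adjusted p = 0.113). Without scaling none of these 4 was lower past the threshold, and miR-452 and miR-500 were at 0.37 and 0.53.

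**Figure D4:**
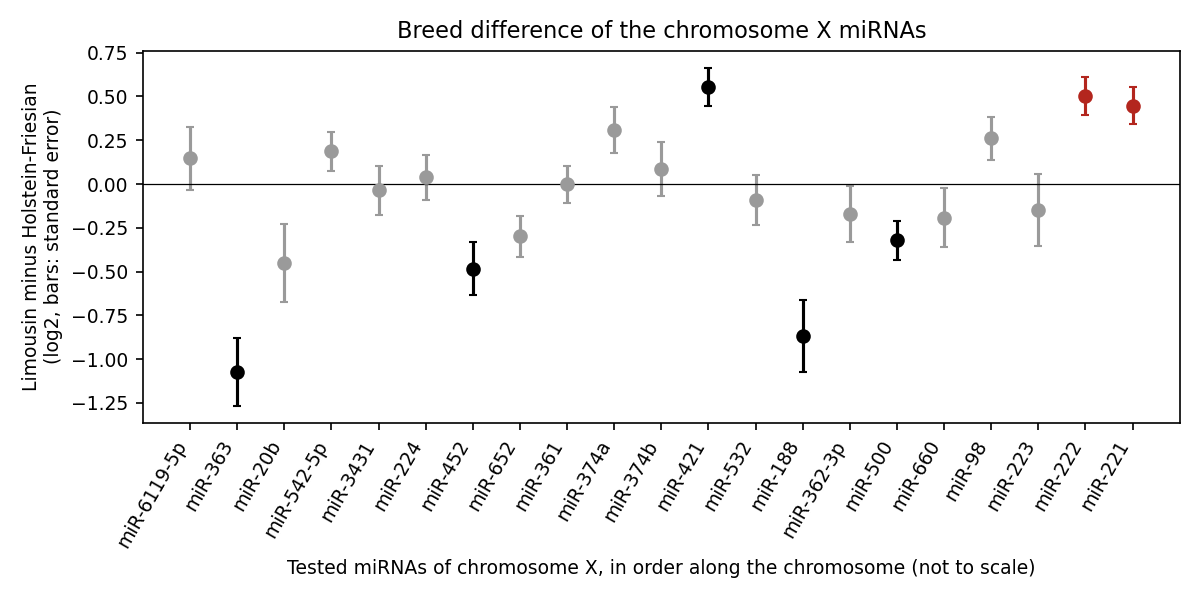
Limousin minus Holstein-Friesian difference (log2) of the 21 tested chromosome X miRNAs in chromosome order, with the standard error from limma; black points passed the adjusted p of 0.05, grey points did not, and the pair is red. miR-222 at 0.50 and miR-221 at 0.45 stand at the right end, next to miR-223 at -0.15, which did not pass and was above 0 under 4 of the 6 other scalings.

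Markers of cell types in the gland were read beside the pair. The 6 tested epithelial miRNAs (the miR-200 family with miR-141 and miR-429, and miR-205) were all abundant, as the label of mammary tissue implies. None passed in limma (0 with an unadjusted p under 0.05); their median was 0.06, and their summed level ran from 14.1 to 14.3 in Holstein-Friesian and from 14.2 to 14.3 in Limousin. Examples are miR-141 at 0.24 (adjusted p = 0.301), miR-205 at 0.22 (adjusted p = 0.247) and miR-200c at -0.17 (adjusted p = 0.225), the last above 0 under 3 of the 6 other scalings.

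Of 4 fibroblast miRNAs 3 were higher in Limousin (13.8% over all tested), all of the miR-199 genes: miR-199a-3p at 0.47 (adjusted p = 0.0115), miR-199a-5p at 0.36 (adjusted p = 0.0230) and miR-199b at 0.59 (adjusted p = 0.0088), while miR-214 was at 0.0048 (adjusted p = 0.981). Their summed level ran from 12.3 to 12.5 in Holstein-Friesian and from 12.7 to 13 in Limousin, without overlap, as for the pair. Near-identical arms of the miR-199 genes cannot be separated on the array. All 3 calls were lost when the arrays were corrected for GC content and length, with differences of 0.02 to 0.20 (adjusted p = 0.112 to 0.899), where that of miR-221 was 0.40 and that of miR-222 was 0.92.

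Of 5 endothelial entries 1 passed, miR-424-5p at 0.55 (adjusted p = 0.0145), against 13.8% over all tested miRNAs. Its call was lost once GC and length were corrected for (0.26, adjusted p = 0.0648). The other arm, miR-424-3p, was at -0.02 (adjusted p = 0.981) and above 0 under all 6 other scalings. miR-130a, a name added after its value was seen, was at 0.16 (adjusted p = 0.346). The defining endothelial miRNA, miR-126, did not pass on either arm: miR-126-3p was at 0.20 (adjusted p = 0.230) and miR-126-5p at 0.41 (adjusted p = 0.0779). With the GC and length correction these arms were at 0.04 and -0.07. The summed endothelial level ran from 12 to 12.3 in Holstein-Friesian and from 12.2 to 12.5 in Limousin, and overlapped.

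Of 7 leukocyte entries 5 were tested and 2 were higher (13.8% over all tested), with a median of 0.02 for the list. The higher ones were miR-155 (above) and miR-142-5p, a miRNA of blood cells, at 0.56 (adjusted p = 0.0222), for which the breeds overlapped. The latter lost its call with the GC and length correction (0.16, adjusted p = 0.348), and miR-142-3p and miR-146a were detected on 0 arrays. miR-342 was at -0.13 (adjusted p = 0.390), and above 0 under 4 of the 6 other scalings. Names added after their values were seen are miR-223, at -0.15 (limma adjusted p = 0.604), and miR-150, at 0.02 (adjusted p = 0.931). miR-150 was at -0.34 without background correction. The summed level ran from 10.56 to 10.98 in Holstein-Friesian and from 10.91 to 11.2 in Limousin, and overlapped.

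The 2 smooth muscle and pericyte miRNAs, miR-143 at -0.06 (adjusted p = 0.637, and above 0 under all 6 other scalings) and miR-145, did not pass (1 had an unadjusted p under 0.05); their summed level ran from 12.1 to 12.3 in Holstein-Friesian and from 11.87 to 12.04 in Limousin. Of 3 erythroid entries, miR-451 was tested, at -0.35 (adjusted p = 0.544, and above 0 under 2 of the 6 other scalings), and miR-144 and miR-486 were detected on 0 arrays. Of 6 skeletal muscle entries, miR-1 was tested, at 0.26 (adjusted p = 0.486), and miR-206, miR-208b and miR-499 were detected on 0 arrays. miR-1 was detected on 2 Holstein-Friesian and 4 Limousin arrays, so it was tested only through its Limousin arrays. It was at -0.40 without background correction, and its difference is not relied on. The part of fibroblast, endothelial or leukocyte RNA in the difference of miR-221 and miR-222 was not tested.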

How the data were processed

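The 8 scanner files hold background-subtracted spot intensities (processed signal) made by the authors with Agilent Feature Extraction 10.10.1.1, per the file headers. The deposited value table holds log2 values, equal to log2 of each file's total gene signal minus a constant per array, within 9.7e-06; its column medians run from -9.79 to -8.53, and why those constants were chosen is not given in the sources used here. Spots of a probe were averaged without those marked as outliers. A probe counted as detected where over 50% of its spots were well above background. Each array was scaled to the 75th percentile of the probes detected on all 8 arrays, floored at 1 and put on the log2 scale. A miRNA was tested where each of a breed's 4 arrays detected it, for either breed; these 269 were fitted with breed in limma 3.58.1 (R 4.3.3), with Benjamini-Hochberg adjustment; 463 miRNAs were detected on no array. The ratio was tested with an exact permutation test over heifers, and its interval by inverting that test. The procedure was tested on simulated data.

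The members, lists and markers were chosen with earlier results of these data known. Named were the pair with all probes, the 5 miRNAs closest to each by r, with and without breed means, and the 3 members with the smallest p in each list; other names are said to be added. Lists were matched by name with or without arm. The list of miRNAs sharing the seed was not analysed here. Alternatives were other scalings, backgrounds, summaries and filters, the deposited table, a replicate block, a GC and length correction and leaving out each array; cyclic loess and keeping the marked spots were added after the data were seen.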

Additional observations from a re-analysis of the deposited data

Results flagged for a closer look

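One value stood apart within its breed among the 96 groups of 4 heifers checked: miR-196a in Limousin replicate 4 was at 6.86, whereas the other 3 Limousin heifers lay between 6.21 and 6.26. The gap was 0.919 of the group's range, above Dixon's 95% critical value for 4 samples. Chance alone marks about 1 group in 20. No level of miR-221 or miR-222, and no within-array difference of the pair, was marked.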

How the results depend on the processing

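The direction of miR-221 and of miR-222 was kept under all alternatives run, from 0.21 to 1.30 and from 0.21 to 1.36. miR-221 lost its call with normexp background (0.21), without background correction (0.25), with the mean of detected probes (0.34, adjusted p = 0.0609) and with a replicate block (0.45, adjusted p = 0.0507). miR-222 lost it with normexp (0.21) and without background correction (0.25). With heifers left out in turn, miR-221 ran from 0.41 to 0.49 (adjusted p 0.0040 to 0.0390) and miR-222 from 0.47 to 0.56 (0.0052 to 0.0286). The ratio ran from -0.0076 to 0.091 with heifers left out, was -0.00098 with normexp and 0.52 with the GC and length correction, with or without the replicate block.

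Of the 269 miRNAs 113 passed (37 higher, 76 lower). The count was 174 without scaling (172 higher, 2 lower), 176 with spike-in scaling (172 and 4), 171 with normexp (26 and 145) and 60 with GC and length correction and replicate block. With the deposited table it was 109 (81 and 28), and with the percentile of all probes 134 (104 and 30). Leaving out heifers gave 71 (Limousin replicate 1) to 143, with 73 without Holstein-Friesian replicate 4. Without background correction the 16-base probe was at -0.23 (limma adjusted p = 0.140). The 15-base and 12-base probes were at -0.48 and -0.42. Those values are not relied on, because neither probe was detected on any Holstein-Friesian array. Background made up 76.3% to 85.0% of their uncorrected signal there. The cause was not tested for any of these changes. Same-numbered arrays of the breeds lay in the same column of the slide. Same-numbered heifers correlated at -0.30, -0.25, -0.45 and 0.31 in their deviations from the breed means. These few values differ in sign and cannot decide whether the numbers pair the heifers.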
